A study of Saccharomyces cerevisiae with 222 samples.

Results

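GPI13 (YLL031C) and YGR079W are 2 budding yeast genes that the study lists with a Ume6 binding site upstream, and they were chosen by their fall within 15 min of removing Ume6 from dividing cells. They are 2 of the 5818 genes in each table. In the SK1 annotation of the tables GPI13 has a coding length of 3054 bases and lies on chromosome 12, and YGR079W has a coding length of 1113 bases and lies on chromosome 7. Because their fall in the mitotic depletion samples is what selected them, those values are given as a description with no test. No tested comparison has a 15 min library in the groups it compares, although the 15 min libraries share in the estimate of spread of the mitotic tests. The study also listed its Ume6-responsive genes over the whole depletion course and left out genes with a large difference before auxin.

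Ume6 is a DNA-binding protein that sits at the promoters of early meiotic genes. In growing cells it recruits the Sin3-Rpd3 histone deacetylase complex and keeps these genes silent. In meiosis it binds the activator Ime1 and takes part in switching the same genes on. A gene bound by Ume6 would usually rise when Ume6 is removed from dividing cells, which is why genes that fall stand apart. One arrangement that can lead to a fall is a long undecoded transcript isoform (LUTI), a 5′-extended transcript started at a distal promoter, whose transcription lowers the use of the gene's own promoter. The study gives GPI13 a LUTI mode and YGR079W a mode in which the coding transcript itself responds. GPI13 encodes an ethanolamine phosphate transferase that acts in the endoplasmic reticulum on the glycosylphosphatidylinositol (GPI) anchor, the glycolipid that holds many cell wall and surface proteins. YGR079W encodes a protein of unknown function.

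The data were 222 RNA-seq libraries of SK1 strains in 74 conditions of 3 replicates each, in 4 experiments. In the mitotic experiment, haploid MATa cells carried UME6-AID-3V5, a degron-tagged Ume6, and LexA-ER-B112, and the depletion strain also carried 4xLexO-OsTIR, which with estradiol and auxin directs the tagged protein to degradation. Both strains received estradiol at -30 min and auxin at 0 min. Wild-type (WT) and ume6Δ cells were collected beside them. In the meiotic experiment, diploids with UME6-AID-3V5, LexA-ER-GAL4AD and copper-inducible pCUP1-IME1 and pCUP1-IME4 were compared with the same strain carrying 8xLexO-OsTIR, from 0.5 to 6 h in sporulation medium. Control and depletion cultures alike received estradiol and auxin at 0.5 h, and copper just after the 2 h sample. The study reports that Ume6 was depleted less fully in these cells than in the mitotic experiment. The rescue experiment crossed IME1 or sfGFP-IME1 with UME6, UME6-3V5, UME6(T99N)-3V5 or UME6(T99N)-3V5-aGFP, where T99N is a mutation that weakens the binding of Ime1 and aGFP is a nanobody that holds GFP-tagged proteins. The activation domain (AD) experiment placed IME1, sfGFP-IME1, B112 (a bacterial acidic activation domain) or sfGFP-B112, driven by the IME1 promoter, in ime1Δ cells with UME6(T99N)-3V5-aGFP, so that only the sfGFP-tagged proteins could be tethered to Ume6. Each culture is a mixture of cells, and fewer cells expressing a gene cannot be told apart from less RNA per cell.

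Levels are TPM as deposited, each gene's share of all transcripts after adjusting for gene length, and the 4 experiments were normalized separately. Differences are log2 fold changes with their SE from edgeR's quasi-likelihood test on the estimated counts, with Benjamini-Hochberg adjusted p over all genes tested in the experiment, and a difference is called at an adjusted p under 0.05. Total counts ranged from 4603815 to 20789730 per library in the mitotic experiment, from 4322697 to 12330746 in the meiotic, from 4497677 to 14452545 in the rescue and from 6456844 to 23448759 in the AD experiment, except for 1 rescue library of 44189 counts. That library, replicate 2 of sfGFP-IME1; UME6-3V5 at 4 h, held 2 reads of GPI13 and 3 of YGR079W. In the first replicate of IME1; UME6-3V5 the counts of the 0 h and 2 h libraries matched the TPM only when the pair was exchanged, so both were left out. UME6 RNA was at 35.5 TPM in WT and 0.239 TPM in ume6Δ cells, as the labels state. The degron acts on the protein, and UME6 RNA was at 114 TPM in depleted cells at 120 min beside 83.7 TPM in the control. Reads were assigned to coding sequences, so a 5′-extended transcript and the coding mRNA of GPI13 fall on the same row, as would antisense reads.

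In dividing cells both genes were lower in every depleted library than in every control library from 15 min on. GPI13 was at 61.3, 67.0 and 63.2 TPM in the control at 15 min and at 43.0, 49.3 and 44.1 TPM in the depletion strain. At 120 min it was at 61.9, 66.4 and 63.3 TPM in the control and 32.8, 32.2 and 38.2 TPM after depletion. The gap was already open at the first time point and was larger at the last. On the log2 scale, depletion minus control began at -0.54 ± 0.09 (SE) after 15 min. It was -0.48 ± 0.09 after 30 min, -0.75 ± 0.09 after 60 min and -0.84 ± 0.09 after 120 min, for 3 against 3 libraries.

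YGR079W was the more abundant of the pair, at 290.0, 290.8 and 293.5 TPM in the control at 15 min. The depleted cultures held 166, 186 and 166 TPM. The groups did not overlap, and the difference was largest at this first point. Depletion minus control was -0.81 ± 0.12 there, -0.63 ± 0.12 after 30 min, and -0.62 ± 0.12 after both 60 and 120 min. As a reference for the same samples, IME2, the early meiotic kinase gene that Ume6 silences, was 3.29 ± 0.18 higher on the log2 scale at 15 min.

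**Figure D1:**
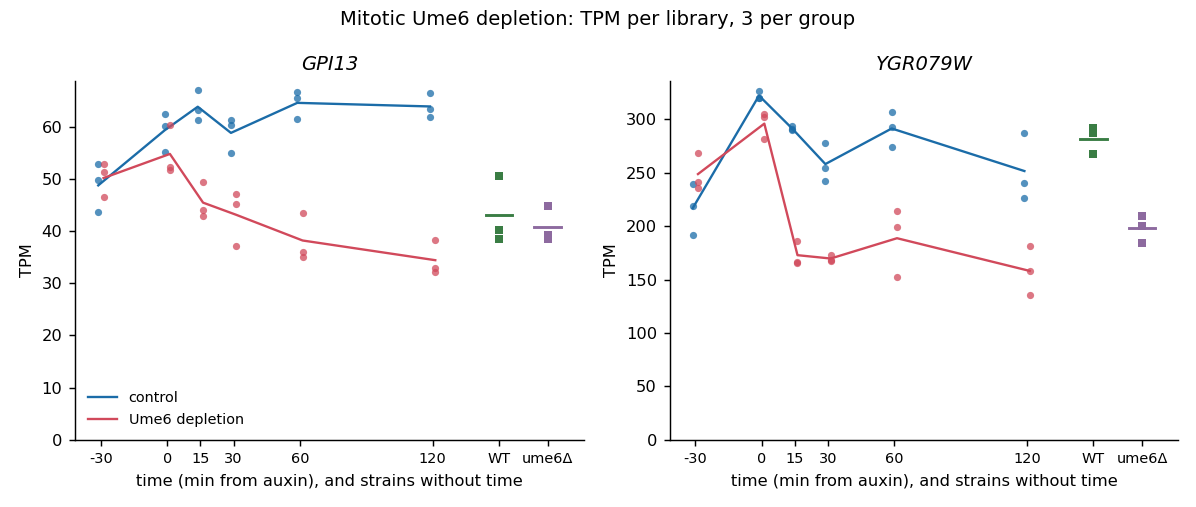
TPM (vertical axis, from 0) of GPI13 and YGR079W in each mitotic library against time in minutes from auxin, with WT and ume6Δ at the right; points are libraries and lines or bars are means of 3. From 15 min on, every depleted library lies under every control library for both genes, while WT and ume6Δ overlap for GPI13 and not for YGR079W.

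Before auxin neither gene was called between the strains. At -30 min GPI13 was at a mean of 50.2 ± 3.30 TPM (SD, n = 3) in the depletion strain and 48.8 ± 4.70 TPM in the control, a log2 difference of 0.05 ± 0.09 (edgeR adjusted p = 1.0), and 0.237% of the 5488 genes tested were called. At 0 min the difference was -0.12 ± 0.09 (edgeR adjusted p = 0.589), with 0.51% of genes called. YGR079W differed by 0.19 ± 0.12 at -30 min (edgeR adjusted p = 0.927) and by -0.13 ± 0.11 at 0 min (edgeR adjusted p = 0.617). At 0 min the YGR079W libraries of the depletion strain, at 302, 281 and 305 TPM, were nevertheless all under those of the control, at 320.0, 320.4 and 326 TPM. In the control itself, GPI13 rose by 0.37 ± 0.09 between -30 and 0 min (edgeR adjusted p = 0.00353), and YGR079W rose by 0.64 ± 0.12 (edgeR adjusted p = 9.25e-05). Over that interval 27.4% of genes were called. The GPI13 call was lost without control replicate 2, at 0.34 (adjusted p = 0.0600). From 0 to 120 min the control level of YGR079W fell by 0.54 ± 0.11 on the log2 scale (edgeR adjusted p = 0.000381), while GPI13 differed by -0.07 ± 0.09 (adjusted p = 0.572), and 38.9% of genes were called. The median gene was 0.18 higher in TPM over that interval, and the ratios of mean TPM were -0.36 for YGR079W and 0.11 for GPI13.

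In ume6Δ cells YGR079W was called lower than in WT, and GPI13 was not called. YGR079W was at 291.7, 286.9 and 267.4 TPM in WT and at 200.6, 209.7 and 184.6 TPM in ume6Δ cells, groups that did not overlap. The log2 difference was -0.60 ± 0.12 (edgeR adjusted p = 5.06e-05), of the same sign as after depletion. GPI13 was at 38.4, 40.2 and 50.6 TPM in WT and at 39.3, 38.5 and 44.8 TPM in ume6Δ cells. These overlapped, and the difference of -0.17 ± 0.09 was not called (edgeR adjusted p = 0.126), with a 95% interval from -0.36 to 0.02. Without WT replicate 1 it was -0.25 and called (adjusted p = 0.0384). A call was common in this comparison, at 55.3% of the 5488 genes, 27.5% higher and 27.8% lower. Neither the difference between the genes nor that between deletion and depletion was tested. The study describes ume6Δ cells as very sick and proposes that their many changed genes combine direct and indirect effects.

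The degron strain without depletion was not the same as WT for YGR079W. At -30 min the control was lower than WT by 0.42 on the log2 scale (-0.42 ± 0.11, edgeR adjusted p = 0.00414), where 39.9% of genes were called, and its UME6 RNA was at 94.5 TPM. The call was lost without control replicate 2, at -0.28 (adjusted p = 0.0630), and with only the compared groups in the fit, at -0.42 (adjusted p = 0.0503). GPI13 differed by 0.13 ± 0.09 (edgeR adjusted p = 0.30), and by 0.27 (adjusted p = 0.0164) without WT replicate 3.

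In starved diploids that were led into meiosis, GPI13 was again lower when Ume6 was depleted. At 2 h, before copper, the control libraries were at 59.9, 78.0 and 78.8 TPM and the depleted libraries at 52.8, 51.6 and 41.1 TPM, without overlap. The log2 difference was -0.55 ± 0.12 (edgeR adjusted p = 0.00557), where 4.74% of the 5526 genes tested were called, 1.85% higher and 2.9% lower. It was not called without control replicate 2 (-0.48, adjusted p = 0.0821) or without depletion replicate 3 (-0.47, adjusted p = 0.0850), nor with only the compared groups in the fit (-0.56, adjusted p = 0.136). At 0.5 h, when the drugs were added, the difference was -0.04 ± 0.12 (edgeR adjusted p = 0.983), with 0.181% of genes called.

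After copper the gap reappeared at all times but one. At 2.5 h GPI13 was at 93.5, 92.2 and 87.0 TPM in the control and 67.4, 65.3 and 54.6 TPM after depletion, a log2 difference of -0.49 ± 0.12 (edgeR adjusted p = 0.0114), against 8.27% of genes called. The call was lost without depletion replicate 3 (-0.42, adjusted p = 0.0909). At 3 h the arms met, with 52.6, 45.2 and 46.6 TPM in the control and 45.4, 42.6 and 48.1 TPM after depletion. The 3 h difference was -0.05 ± 0.12 (edgeR adjusted p = 0.866), where 8.4% of genes were called. At 4.5 h the control was at 75.4, 69.9 and 126 TPM, the third library far above the others, and the depleted libraries at 55.2, 51.0 and 45.1 TPM. The difference there was -0.65 ± 0.12 (edgeR adjusted p = 0.00105), with 8.76% called. At 6 h the control was at 86.2, 83.8 and 101 TPM and the depleted libraries at 52.1, 46.7 and 44.5 TPM, the widest gap of the course, at -0.84 ± 0.12 (edgeR adjusted p = 1.20e-05), with 13.6% called.

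GPI13 in the depleted cells stayed between group means of 44.8 and 62.4 TPM throughout, and the control moved between 47.4 and 90.9 TPM. In the control it rose by 0.45 ± 0.12 from 0.5 to 2 h (edgeR adjusted p = 0.00199), where 66.4% of genes were called, and by 0.35 (adjusted p = 0.0517) without control replicate 2. It was 0.07 ± 0.12 from the 2 h level at 2.5 h (adjusted p = 0.659, 59.9% called), and the ratio of mean TPM was 0.33 on the log2 scale, since the median gene moved by 0.26 between the scalings. It fell by 0.80 at 3 h (-0.80 ± 0.12, edgeR adjusted p = 1.82e-06, 62.6% called). It was 0.10 ± 0.12 from the 2 h level at 4.5 h (adjusted p = 0.472, 64.8% called) and 0.29 ± 0.12 above it at 6 h (edgeR adjusted p = 0.0401, 69.2% called). The last call was lost without control replicate 1, at 0.19 (adjusted p = 0.230), and with only the compared groups in the fit, at 0.28 (adjusted p = 0.0887). The drop at 3 h was seen in all 3 control libraries, and IME2 in the same libraries went from 1183 TPM at 2.5 h to 358 TPM at 3 h and back to 665 TPM at 4.5 h. With this induction system the study describes a reproducible rise of many early meiotic genes at 2.5 h and a drop at 3 h. It calls the cause unclear.

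YGR079W followed another course. In the control it was at 45.7, 89.8 and 92.2 TPM at 0.5 h and at 421, 346 and 358 TPM at 2 h, a rise of 2.15 ± 0.22 on the log2 scale (edgeR adjusted p = 7.56e-10). After copper it dropped, to 192, 189 and 151 TPM at 2.5 h and 96.0, 71.2 and 88.1 TPM at 6 h. Every culture received copper, so induction of IME1 and IME4, copper itself and time in the medium cannot be told apart. Relative to 2 h the log2 difference was -1.34 ± 0.22 at 2.5 h (edgeR adjusted p = 3.44e-06), -1.21 ± 0.22 at 3 h (adjusted p = 1.47e-05), -2.14 ± 0.22 at 4.5 h (adjusted p = 1.36e-09) and -2.17 ± 0.22 at 6 h (adjusted p = 6.69e-10). The 2 h sample was thus its maximum in the control.

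YGR079W was not called lower after depletion in these cells. By the study's account Ume6 was removed less fully here than in dividing cells, and what this meant for either gene was not tested. At 2 h the depleted libraries were at 548, 468 and 320 TPM, overlapping the control, with a difference of 0.28 ± 0.21 (edgeR adjusted p = 0.555). At 2.5 h they were at 386, 255 and 250 TPM, all above the control, and the difference of 0.79 ± 0.21 was called (edgeR adjusted p = 0.0190), in the direction opposite to dividing cells. That call was lost without control replicate 2 (0.82, adjusted p = 0.0867), without control replicate 3 (0.70, adjusted p = 0.113) and without depletion replicate 1 (0.58, adjusted p = 0.0740). No other time was called, the differences being -0.55 ± 0.22 at 0.5 h (adjusted p = 0.641), 0.31 ± 0.21 at 3 h (0.410), 0.11 ± 0.22 at 4.5 h (0.797) and 0.43 ± 0.22 at 6 h (0.205). With only the 6 compared libraries in the fit, the 6 h difference was called (0.43, adjusted p = 0.0151).

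**Figure D2:**
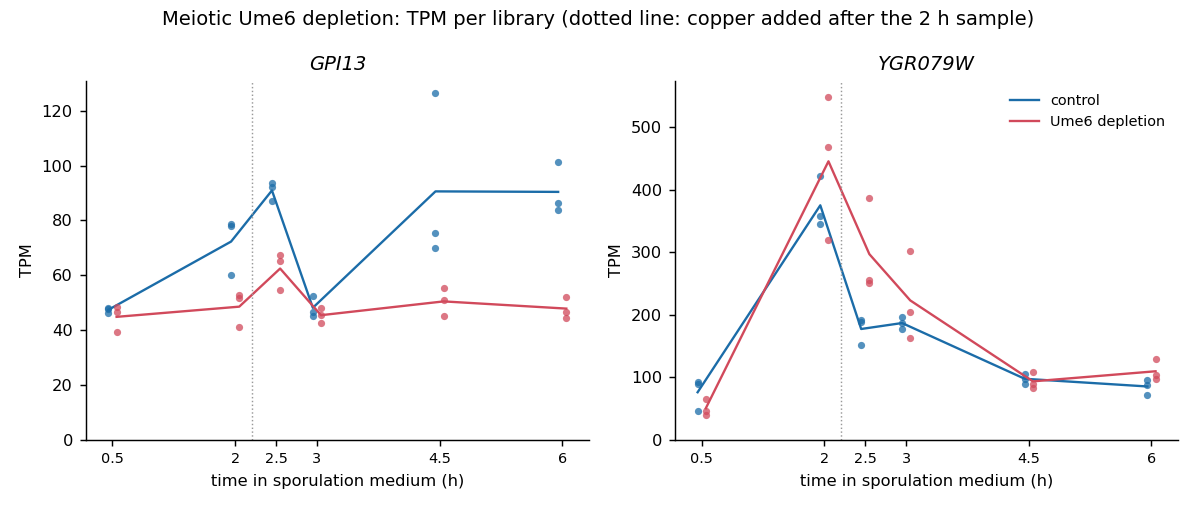
TPM (vertical axis, from 0) of both genes in each meiotic library against hours in sporulation medium, for the control and the Ume6 depletion strain; points are libraries, lines join the means of 3 and the dotted line marks copper. GPI13 stays between means of 44.8 and 62.4 TPM after depletion while the control moves between 47.4 and 90.9 TPM, and YGR079W peaks at 2 h in both strains.

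Whether depletion altered the change that followed induction was tested by an interaction term. For GPI13 the change from 2 h differed between the strains by 0.06 ± 0.17 at 2.5 h (edgeR adjusted p = 0.952), where 3.29% of genes were called, by 0.51 ± 0.18 at 3 h (adjusted p = 0.0962, 4.23% called), by -0.09 ± 0.18 at 4.5 h (adjusted p = 0.843, 3.96% called) and by -0.29 ± 0.18 at 6 h (adjusted p = 0.384, 7.27% called). None was called, except that the 3 h term was 0.71 (adjusted p = 0.0171) without control replicate 1. For YGR079W the terms were 0.51 ± 0.30 (adjusted p = 0.457), 0.04 ± 0.30 (0.969), -0.16 ± 0.30 (0.843) and 0.16 ± 0.30 (0.863), each with a 95% interval wider than 1 log2 unit.

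In cells with IME1 under its own promoter and unmodified UME6, the genes moved in opposite directions. GPI13 went from 46.1, 35.3 and 51.1 TPM at 0 h to 69.4, 69.8 and 82.0 TPM at 2 h and 172.2, 178 and 173 TPM at 4 h, its highest group mean among the 74 conditions. At 6 h it was at 80.9, 106 and 94.3 TPM. Against 0 h it rose by 0.70 ± 0.13 at 2 h (edgeR adjusted p = 7.03e-06), 1.81 ± 0.14 at 4 h (adjusted p = 4.60e-19) and 1.53 ± 0.14 at 6 h (adjusted p = 2.16e-16). The called shares of the 5527 genes tested were 66.8%, 74.1% and 81.6%. The 6 h value depended on the scale, because the median gene was 0.44 lower in TPM than in scaled counts, and the ratio of mean TPM was 1.09.

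YGR079W went down over the same hours, from 238, 135 and 224 TPM at 0 h to 76.3, 64.9 and 63.5 TPM at 4 h and 45.1, 38.8 and 47.8 TPM at 6 h. It fell by 1.29 at 2 h (-1.29 ± 0.43, edgeR adjusted p = 0.00641), 1.71 at 4 h (-1.71 ± 0.43, adjusted p = 0.000349) and 1.73 at 6 h (-1.73 ± 0.44, adjusted p = 0.000274). The 2 h libraries were uneven, at 169, 52.3 and 31.1 TPM, and the 2 h call was lost without replicate 3 (-0.82, adjusted p = 0.158). A fall was not limited to unmodified UME6. At 0, 2, 4 and 6 h the means were 222, 83.3, 59.3 and 60.6 TPM in IME1; UME6(T99N)-3V5-aGFP. In IME1; UME6(T99N)-3V5 they were 141, 53.4, 53.3 and 64.6 TPM. The change with time was not tested in those strains.

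With T99N in Ume6, GPI13 was lower at the later times. In the sfGFP-IME1 strains at 4 h, UME6-3V5 had 84.1 and 96.3 TPM, beside 15.2 TPM in the library of low depth, and UME6(T99N)-3V5 had 44.3, 40.1 and 45.8 TPM. T99N minus wild-type Ume6 was -0.79 ± 0.14 at 4 h (edgeR adjusted p = 3.42e-05) and -0.55 ± 0.13 at 6 h (adjusted p = 0.00276), against 15.1% and 12.8% of genes called. At 2 h it was -0.33 ± 0.13 and not called (adjusted p = 0.0742, 18.6% called), and the libraries did not overlap, at 47.5, 44.6 and 53.9 TPM against 35.3, 42.2 and 41.3 TPM. Without the library of low depth in the fit the 2 h difference kept its size and was called (-0.33, adjusted p = 0.0314), as it was without the whole culture that this library came from (-0.36, adjusted p = 0.0435). At 0 h the sign was opposite, with T99N higher by 0.42 ± 0.14 (adjusted p = 0.0145, 30.4% called), a call lost without UME6(T99N)-3V5 replicate 2 (0.30, adjusted p = 0.210) and with only the compared groups in the fit (0.43, adjusted p = 0.159).

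The same mutation with untagged IME1 gave the same signs from 2 h on. GPI13 was at 107, 103 and 110 TPM in UME6-3V5 at 4 h and at 52.2, 49.5 and 45.9 TPM in UME6(T99N)-3V5. The differences were -0.56 ± 0.15 at 2 h (edgeR adjusted p = 0.00327), -0.97 ± 0.13 at 4 h (adjusted p = 3.84e-08) and -0.66 ± 0.13 at 6 h (adjusted p = 8.58e-05), where 23.7%, 27.8% and 30.5% of genes were called. At 0 h the difference was 0.19 ± 0.15 (adjusted p = 0.504, 9.43% called). With the exchanged pair left out, UME6-3V5 has 2 libraries at 0 and 2 h, and the 2 h call was lost without UME6-3V5 replicate 3 (-0.39, adjusted p = 0.243) and with the exchanged libraries kept under their labels (-0.36, adjusted p = 0.195).

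YGR079W was not called for T99N at any time in either IME1 background. Its differences were 0.50 ± 0.42, -0.56 ± 0.46, -0.99 ± 0.47 and -0.62 ± 0.42 at 0, 2, 4 and 6 h with sfGFP-IME1, with edgeR adjusted p of 0.387, 0.440, 0.152 and 0.380. With untagged IME1 they were -0.41 ± 0.46, 0.68 ± 0.51, -0.51 ± 0.43 and -0.59 ± 0.43 (adjusted p of 0.677, 0.350, 0.406 and 0.319). The SE rested on all 94 fitted libraries, among which this gene was uneven, for example 108, 442 and 103 TPM in sfGFP-IME1; UME6(T99N)-3V5 at 0 h. With only the compared groups in the fit, T99N was lower and called at 4 h (-1.0, adjusted p = 0.00107) and 6 h (-0.62, adjusted p = 0.00281) with sfGFP-IME1, and at 0 h (-0.41, adjusted p = 0.0144), 4 h (-0.53, adjusted p = 0.0182) and 6 h (-0.60, adjusted p = 0.00250) with untagged IME1. In these groups the libraries did not overlap at 4 and 6 h.

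GPI13 was higher where Ime1 was tethered to the mutant Ume6. The question was whether joining the 2 proteins restores expression, and the comparison set sfGFP-IME1 against untagged IME1, both with UME6(T99N)-3V5-aGFP. At 2 h GPI13 was at 110, 96.9 and 94.5 TPM in the tethered strain and at 39.8, 39.8 and 40.6 TPM in the untethered one. It was higher by 1.04 ± 0.14 at 2 h (edgeR adjusted p = 7.65e-10), 0.93 ± 0.14 at 4 h (adjusted p = 1.45e-08) and 0.70 ± 0.13 at 6 h (adjusted p = 5.32e-06). The shares of genes called were 62.2%, 66.1% and 70.4%, so a call alone was common, and 29% of genes were called higher and 33.3% lower at 2 h. At 0 h GPI13 did not differ detectably (0.00 ± 0.14, 95% interval -0.27 to 0.27, adjusted p = 0.998, 35.1% called). The sfGFP-IME1 strain with UME6(T99N)-3V5 and no nanobody was at 39.6 ± 3.8 TPM at 2 h (SD, n = 3). In TPM the median gene was shifted up by 0.29, 0.22 and 0.11 at 2, 4 and 6 h, and the ratio of mean TPM for GPI13 was 1.33, 1.15 and 0.81.

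**Figure D3:**
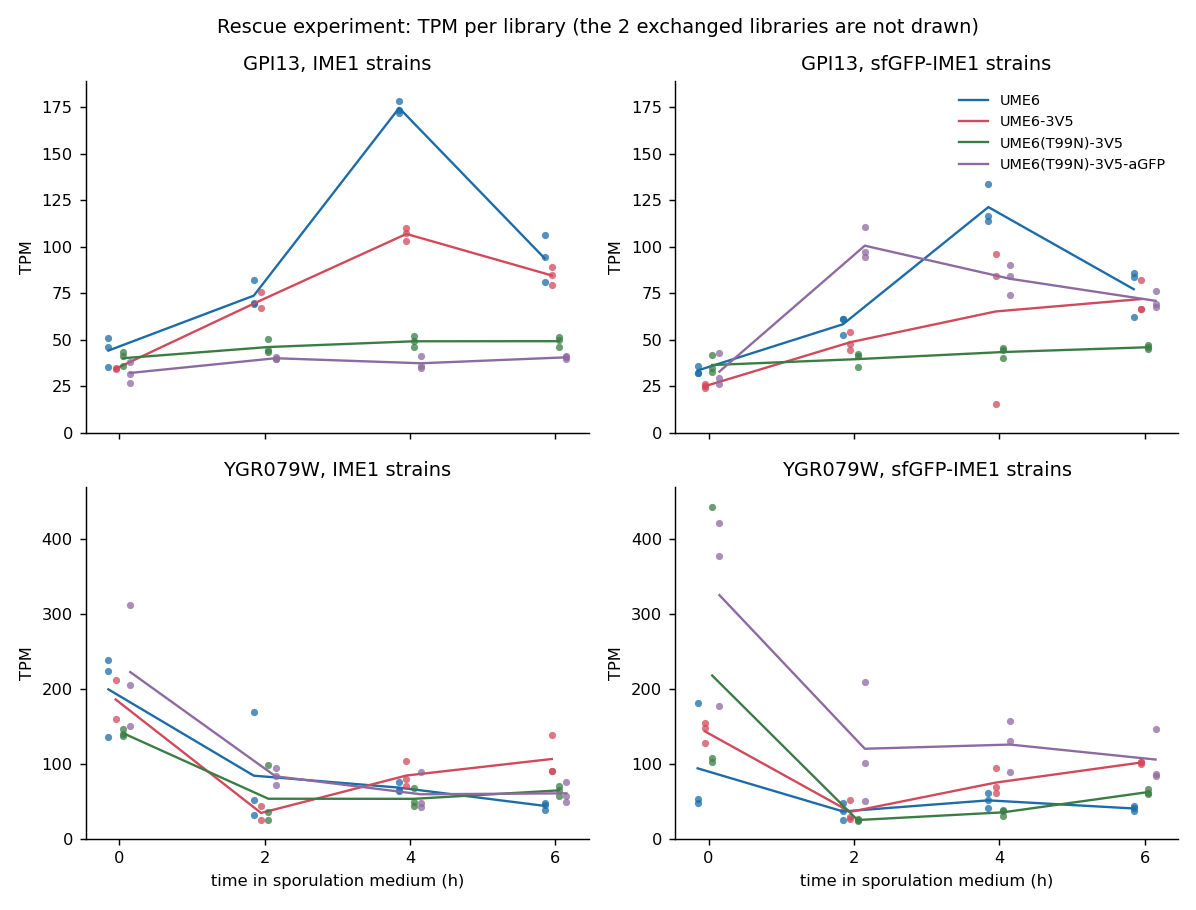
TPM (vertical axis, from 0) of GPI13 and YGR079W in each rescue library against hours in sporulation medium, for 4 UME6 alleles with IME1 (left) or sfGFP-IME1 (right); points are libraries and lines join group means of 3, or of 2 where an exchanged library was left out. GPI13 reaches a mean of 175 TPM at 4 h with IME1 and UME6, stays at or under 49.2 TPM with UME6(T99N)-3V5, and is at 101 TPM at 2 h in the tethered strain.

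For YGR079W tethering gave no call. The difference was 0.51 ± 0.41 at 0 h (edgeR adjusted p = 0.356), 0.21 ± 0.43 at 2 h (adjusted p = 0.688), 0.88 ± 0.43 at 4 h (adjusted p = 0.0639) and 0.69 ± 0.43 at 6 h (adjusted p = 0.141). At 4 h the tethered libraries, at 131, 156 and 89.5 TPM, were all above the untethered ones, at 88.7, 41.9 and 47.4 TPM. That difference was called without untethered replicate 1 (1.24, adjusted p = 0.0282), without tethered replicate 3 (1.14, adjusted p = 0.0232) and with only the compared groups in the fit (0.92, adjusted p = 0.0101). The 6 h difference was called in that last fit too (0.75, adjusted p = 0.0184).

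The AD experiment repeated the tethering of Ime1 and added B112. At 0 h the mean of IME2 was 5273 TPM in sfGFP-IME1, 5320 TPM in sfGFP-B112, 139 TPM in IME1 and 77.9 TPM in B112. In the 0 h groups of the rescue experiment, normalized separately, it ran from 9.96 to 803 TPM, the highest in the strain with sfGFP-IME1 and UME6(T99N)-3V5-aGFP. The study also describes high IME2 at 0 h in both sfGFP strains of the AD experiment. It proposes that the strong binding of GFP to the nanobody starts meiosis early. The part of this in the 0 h results was not tested. GPI13 at 0 h was at 129, 148 and 114 TPM in sfGFP-IME1 and at 47.0, 28.8 and 41.0 TPM in IME1. The difference was 1.63 ± 0.19 (edgeR adjusted p = 3.31e-09), with 63.2% of the 5528 genes tested called. At 2 h the libraries were at 68.1, 75.8 and 69.1 TPM against 47.5, 46.8 and 46.8 TPM, a difference of 0.57 ± 0.19 (adjusted p = 0.00838), with 63.8% called, 32.6% higher and 31.2% lower.

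At the later times the size of the difference depended on the scale, and at 6 h so did its direction. On scaled counts GPI13 was higher with sfGFP-IME1 by 0.60 ± 0.19 at 4 h (edgeR adjusted p = 0.00479, 69.8% called) and 0.50 ± 0.19 at 6 h (adjusted p = 0.0204, 61.1% called). In TPM the groups overlapped, at 54.8, 47.5 and 41.0 against 52.6, 36.6 and 45.6 at 4 h and at 45.7, 40.0 and 33.0 against 49.3, 44.2 and 47.6 at 6 h, and the log2 ratios of mean TPM were 0.09 and -0.25. The median gene was lower in TPM by 0.51 and 0.75 at these times (shifts of -0.51 and -0.75). The 6 h call was also lost without sfGFP-IME1 replicate 1 (0.38, adjusted p = 0.136).

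Tethered B112 raised GPI13 at 3 of 4 times. At 0 h it was at 67.4, 82.3 and 79.5 TPM in sfGFP-B112 and 24.0, 23.9 and 30.0 TPM in B112, a difference of 1.17 ± 0.19 (edgeR adjusted p = 1.95e-06, 60% called). At 2 h the groups overlapped, at 47.3, 36.9 and 40.0 TPM against 41.9, 37.2 and 35.0 TPM, and the difference was -0.05 ± 0.19 (adjusted p = 0.856), with a 95% interval from -0.43 to 0.34, where 48.4% of genes were called, 24% higher and 24.4% lower. At 4 h it was at 75.2, 69.6 and 74.5 TPM against 43.9, 32.6 and 35.1 TPM, a difference of 0.67 ± 0.19 (adjusted p = 0.00365, 45% called). At 6 h the difference was 0.88 ± 0.19 (adjusted p = 0.000141, 59.6% called). The median gene was shifted up in TPM by 0.37, 0.16 and 0.30 at 0, 2 and 4 h, where the ratios of mean TPM were 1.56, 0.12 and 0.97.

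Set against each other, the tethered strains differed early. GPI13 was lower with sfGFP-B112 than with sfGFP-IME1 by 0.75 on the log2 scale at 0 h (-0.75 ± 0.19, edgeR adjusted p = 0.00455, 18% called) and by 0.78 at 2 h (-0.78 ± 0.19, adjusted p = 0.00180, 27.3% called). At 4 h the difference was -0.07 ± 0.19 (adjusted p = 0.766, 62.9% called) with a 95% interval from -0.45 to 0.31, and at 6 h 0.07 ± 0.19 (adjusted p = 0.760, 56.8% called) with an interval from -0.31 to 0.45. In TPM sfGFP-B112 was the higher at these times in every library, and the ratios of mean TPM were 0.62 and 0.85, since the median gene moved up by 0.68 and 0.78. The comparison shares the sfGFP-IME1 and sfGFP-B112 libraries with the 2 comparisons before it.

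**Figure D4:**
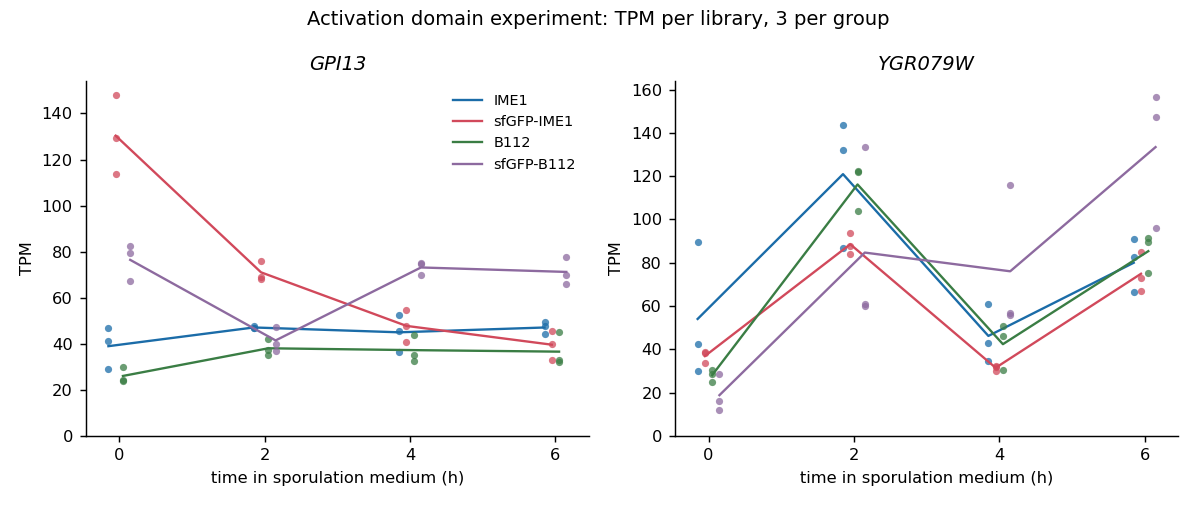
TPM (vertical axis, from 0) of both genes in each AD library against hours in sporulation medium for the 4 transgenes; points are libraries and lines join means of 3. GPI13 starts at means of 130 TPM in sfGFP-IME1 and 76.4 TPM in sfGFP-B112 at 0 h, above the untagged strains at 38.9 and 26.0 TPM.

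YGR079W was at a higher mean at 2 h than at 0 h in all 4 AD strains, a change with time that was not tested. Its level was low at 0 h, at group means of 18.8 to 54.0 TPM, and at means of 84.7 to 121 TPM at 2 h. The rescue strains with UME6(T99N)-3V5-aGFP went the other way from 0 to 2 h. Their means went from 325 to 120 TPM with sfGFP-IME1 and from 222 to 83.3 TPM with IME1. Tethered Ime1 gave -0.48 ± 0.29 at 0 h (edgeR adjusted p = 0.15), -0.48 ± 0.29 at 2 h (adjusted p = 0.142), -0.05 ± 0.29 at 4 h (adjusted p = 0.889) and 0.66 ± 0.29 at 6 h (adjusted p = 0.0454). The 6 h call was lost without IME1 replicate 1 or 3 and without sfGFP-IME1 replicate 1 or 3, at values of 0.52 to 0.75 (adjusted p of 0.0591 to 0.159). It was also lost with a replicate block (0.65, adjusted p = 0.0527), and the ratio of mean TPM was -0.10. At 4 h the tethered libraries, at 32.5, 29.8 and 32.0 TPM, were all under the untethered ones, at 34.7, 43.1 and 60.7 TPM, with a ratio of mean TPM of -0.55. The 2 h difference was called with only the compared groups in the fit (-0.49, adjusted p = 0.0342) and without IME1 replicate 1 (-0.67, adjusted p = 0.0482).

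YGR079W was called lower with tethered B112 at 0 h, and whether the difference changed with time was not tested. The libraries were at 28.4, 11.8 and 16.0 TPM in sfGFP-B112 and at 28.6, 24.9 and 30.6 TPM in B112, so that one tethered library lay within the range of the others. The difference was -0.95 ± 0.30 (edgeR adjusted p = 0.00638), and it missed the threshold without sfGFP-B112 replicate 2 (-0.72, adjusted p = 0.0523) and with only the compared groups in the fit (-0.88, adjusted p = 0.0626). At 2, 4 and 6 h the differences were -0.64 ± 0.29 (adjusted p = 0.0635), 0.54 ± 0.29 (0.125) and 0.55 ± 0.29 (0.0967). The 2 h libraries of sfGFP-B112 were at 133, 59.9 and 60.8 TPM, and without the highest, replicate 1, the difference was -1.09 (adjusted p = 0.000822). The 6 h difference was called without sfGFP-B112 replicate 3 (0.73, adjusted p = 0.0418) and with only the compared groups in the fit (0.58, adjusted p = 0.0296).

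Between the tethered strains, YGR079W was lower with sfGFP-B112 at 0 h by 0.97 (-0.97 ± 0.30, edgeR adjusted p = 0.0203), and not called at 2 h (-0.08 ± 0.29, adjusted p = 0.874), 4 h (0.57 ± 0.29, adjusted p = 0.0818) or 6 h (0.05 ± 0.28, adjusted p = 0.902). The 0 h call was lost without sfGFP-IME1 replicate 1 (-0.97, adjusted p = 0.0688) or 3 (-0.88, adjusted p = 0.105), without sfGFP-B112 replicate 2 (-0.74, adjusted p = 0.161) or 3 (-0.86, adjusted p = 0.10), and with only the compared groups in the fit (-0.96, adjusted p = 0.106). The 4 h difference was called without sfGFP-B112 replicate 2 (0.73, adjusted p = 0.0380) or 3 (0.74, adjusted p = 0.0411).

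Over the 48 tested comparisons GPI13 was called in 29, higher in 17 and lower in 12, and YGR079W in 16, higher in 4 and lower in 12, where the share of all genes called ran from 0.181% to 81.6%. In the rescue experiment this was 12 of 15 for GPI13 and 3 of 15 for YGR079W, with 9.43% to 81.6% of all genes called, and in the mitotic experiment 1 of 6 and 4 of 6, with 0.237% to 55.3% called. Many of these comparisons share libraries and the shares vary widely, so the counts are a description. Whether either gene was called more often than other genes was not tested.

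**Figure D5:**
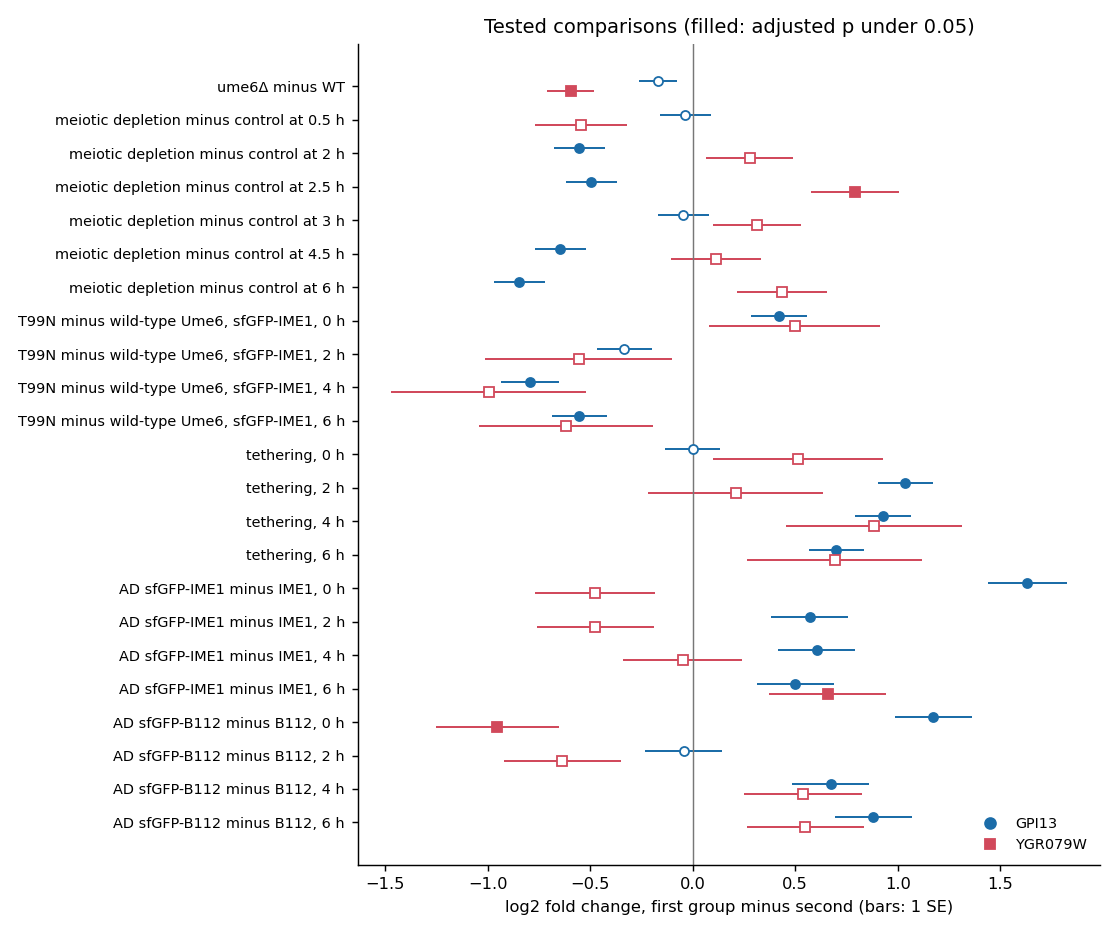
Log2 fold change of GPI13 (circles) and YGR079W (squares) in 23 of the tested comparisons, first group minus second, with bars of 1 SE and filled symbols where the edgeR adjusted p is under 0.05. In ume6Δ minus WT only YGR079W is filled, at -0.60, and in tethering at 2 to 6 h only GPI13 is, at 0.70 to 1.04.

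The group means of GPI13 spanned 34.4 to 64.6 TPM in the mitotic experiment, 44.8 to 90.9 TPM in the meiotic, 25.0 to 175 TPM in the rescue and 26.0 to 130 TPM in the AD experiment. Those of YGR079W spanned 158 to 322, 50.3 to 445, 25.0 to 325 and 18.8 to 133 TPM. When the conditions of an experiment were put in order of level, few neighbours were further apart than the sum of their SDs, namely 0 of 13, 1 of 11, 4 of 31 and 2 of 15 neighbouring pairs for GPI13 and 1 of 13, 1 of 11, 0 of 31 and 2 of 15 for YGR079W. Averaged over the mitotic libraries, GPI13 lay above 53.1% and YGR079W above 88.9% of genes in TPM.

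Across the 74 group means the members were not alike, with a Pearson r of -0.14 for log2(TPM + 1) centred within each experiment, and 0.06 without the rescue experiment. Of 5482 genes, the 3 closest to GPI13 were MMS1, a gene of replication fork repair (r = 0.88), APL4, which encodes a subunit of the AP-1 clathrin adaptor (r = 0.87), and REC114, needed for meiotic double-strand breaks (r = 0.86). The 3 closest to YGR079W were HAS1, an RNA helicase gene of ribosome assembly (r = 0.85), ATC1 (r = 0.85) and RRP4, which encodes a subunit of the RNA exosome (r = 0.84). In ume6Δ minus WT, where YGR079W was at -0.60, HAS1 was at -0.35, ATC1 at -0.60 and RRP4 at -0.51 on the log2 scale. In tethering at 2 h, where YGR079W was at 0.21, they were at 0.25, -0.63 and 0.10 in that order. On meiotic depletion at 2 h, where GPI13 was at -0.55, MMS1 was at 0.47, APL4 at 0.22 and REC114 at 0.03. In tethering at 2 h, where GPI13 was at 1.04, these 3 were at 0.87, 1.16 and 0.86. All these groups also enter r. Groups of an experiment share strains and times, so the r values are descriptive. Leaving out an experiment kept 2 or 3 of the GPI13 genes and 1 or 2 of the YGR079W genes among the closest 3.

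GPI13 is one of 22 genes on the list of GPI anchor synthesis and transfer, on which MCD4 and LAS21 encode the other ethanolamine phosphate transferases and GPI11 a partner of Gpi13. At 15 min of mitotic depletion, where the choice of GPI13 rests, MCD4 was at -0.24 ± 0.08, LAS21 at -0.33 ± 0.14 and GPI11 at 0.02 ± 0.10, and the median of the list was -0.06 beside 0.00 for all genes. In ume6Δ cells 4 of the 22 were called higher, 3 lower and 15 not called, where 27.5% of all genes were called higher and 27.8% lower, with a median of 0.06 beside -0.03 for all genes. The largest were PBN1, a mannosyltransferase subunit gene, at 0.93 ± 0.07 (edgeR adjusted p = 3.42e-14), GPI2, of the first step of the pathway, at 0.80 ± 0.13 (adjusted p = 3.60e-06) and GPI11 at -0.55 ± 0.10 (adjusted p = 1.81e-05). On meiotic depletion at 2 h 0 were higher and 2 lower, beside 1.85% and 2.9% of all genes. The 2 were GPI13 and LAS21, the latter at -0.57 ± 0.16 (adjusted p = 0.0339).

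In the tethered strain at 2 h 8 of the 22 were higher and 1 was lower, beside 29% and 33.3% of all genes, with a median of 0.13 beside -0.06 for all genes. MCD4 was at 44.9, 35.9 and 51.5 TPM in the tethered and 16.9, 9.94 and 11.9 TPM in the untethered strain, higher by 1.50 ± 0.17 (edgeR adjusted p = 1.98e-11), and GAB1, of the complex that attaches the anchor to proteins, by 1.01 ± 0.15 (adjusted p = 2.49e-08). With sfGFP-IME1 in the AD strains at 2 h 12 were higher and 1 lower, beside 32.6% and 31.2% of all genes, with a median of 0.50 beside -0.02, led by GAB1 at 1.55 ± 0.13 (adjusted p = 2.42e-12). With sfGFP-B112 at 2 h 8 were higher and 0 lower, beside 24% and 24.4% of all genes, with a median of 0.06 beside -0.07, MCD4 among them at 1.23 ± 0.25 (adjusted p = 9.74e-05), at the time when GPI13 itself was not called. Of the 6 genes that remodel the anchor after attachment, 3 were higher and 3 lower in the tethered strain at 2 h, where 62.2% of all genes were called, CWH43 the largest at -1.33 ± 0.12 (adjusted p = 7.03e-15).

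Besides GPI13, the bound genes with a LUTI mode read here were ATG1, IGD1, LCB5, MCO32, NDC80 and PKH2, a list chosen in part on these samples. The study counts more Ume6-controlled LUTIs than these. At 15 min of mitotic depletion these genes were higher, not lower, from 0.58 for LCB5 to 1.31 for IGD1 on the log2 scale. The study drew its Ume6-responsive genes from the same depletion course, so this direction is not independent of the choice. In ume6Δ cells 6 of the 7 were called higher, beside 27.5% of all genes, and GPI13 was not, with NDC80, the outer kinetochore gene, at 1.73 ± 0.19 (edgeR adjusted p = 2.92e-09). On meiotic depletion at 2 h 3 were higher and 1, GPI13, was lower, beside 1.85% and 2.9% of all genes. In the tethered strain at 2 h 5 of 7 were higher, beside 29% of all genes, and with sfGFP-IME1 in the AD strains at 2 h all 7 were, beside 32.6%.

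The genes beside the members, named from the S288C R64 annotation, were read to see whether a change was shared along the chromosome. YLL032C, next to GPI13 on its downstream side and of unknown function, was at 46.6, 73.6 and 82.7 TPM in the meiotic control at 2 h and at 45.4, 46.0 and 31.7 TPM after depletion. It was lower there (-0.70 ± 0.18, edgeR adjusted p = 0.0134), and higher in the tethered strain at 2 h (1.48 ± 0.19, adjusted p = 8.96e-10) and with sfGFP-IME1 in the AD strains at 2 h (1.52 ± 0.21, adjusted p = 7.46e-08). With sfGFP-B112 at 2 h it was at 0.26 ± 0.20 (adjusted p = 0.298). At 15 min of mitotic depletion it was at 0.10 ± 0.10, beside -0.54 for GPI13. YLL029W (FRA1), on the upstream side, was at 0.00 ± 0.10 on meiotic depletion at 2 h (adjusted p = 0.999), higher in ume6Δ cells (0.24 ± 0.05, adjusted p = 0.000294) and lower at 2 h in the tethered strain (-0.42 ± 0.16, adjusted p = 0.0189), with sfGFP-IME1 in the AD strains (-1.06 ± 0.20, adjusted p = 1.95e-05) and with sfGFP-B112 (-0.85 ± 0.20, adjusted p = 0.000567). YLL033W (IRC19), one gene beyond YLL032C, was lower in the tethered strain at 2 h (-0.55 ± 0.21, adjusted p = 0.0172), where GPI13 was higher, and with sfGFP-B112 at 2 h (-0.58 ± 0.23, adjusted p = 0.0358). It was at -0.02 ± 0.23 with sfGFP-IME1 in the AD strains at 2 h (adjusted p = 0.945) and at -0.41 ± 0.16 on meiotic depletion at 2 h (adjusted p = 0.144). YLL030C, which lies between GPI13 and FRA1 in that annotation, was not analysed here.

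Of the neighbours of YGR079W, the divergent YGR078C (PAC10, a prefoldin subunit gene) was at -0.20 ± 0.09 in ume6Δ cells (edgeR adjusted p = 0.0507) and YGR080W (TWF1, twinfilin), on the downstream side, at 0.21 ± 0.08 (adjusted p = 0.0285), against -0.60 for YGR079W. One gene further, YGR081C (SLX9, of ribosome assembly) was lower in ume6Δ cells (-0.81 ± 0.21, adjusted p = 0.00148). On meiotic depletion at 2 h none of the 4 neighbours of YGR079W was called.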

How the data were processed

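Strand-specific polyA libraries of SK1 yeast were sequenced as single-end reads of 100 bp. The authors quantified them with kallisto (fragment length 160 ± 20) against SK1 coding sequences, and the deposited tables hold estimated counts and length-adjusted transcript shares (TPM) for each gene. No strand option is stated for kallisto. The submitters' processing notes also name HISAT2, SAMtools and StringTie, and versions are not given in the sources used here.

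Estimated counts were rounded, filtered with filterByExpr and scaled by TMM. Each experiment was fitted once with a mean per group in edgeR 4.0.16 (R 4.3.3), with quasi-likelihood tests and Benjamini-Hochberg adjustment over the 5488 mitotic, 5526 meiotic, 5527 rescue or 5528 AD genes tested. In all, 48 comparisons were tested and 4 mitotic depletion contrasts were described without a test. The 95% intervals are the log2 fold change plus or minus the t quantile times the SE. The scripts were tested on simulated data.

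The members and gene lists were chosen with earlier results of these data known. The text names both members in every comparison, neighbours, check genes and ethanolamine phosphate transferase genes where a comparison turns on them, up to 3 GPI genes with the largest called change, and the 3 genes most like each member. Other genes of the LUTI and remodelling lists and SLX9 were named after their values were seen. Groups came from the labels. The paper calls the replicates biological, while the labels do not say whether they were separate cultures, so p-values measure the spread between these libraries. Of 222 replicate pairs, 0 had identical counts. A pair of rescue libraries was left out because the median absolute deviation of the log2 ratio of counts to TPM was at least 0.855 under their own labels and at most 0.00762 when exchanged, against at most 0.00858 for the others. Replicate numbers paired the libraries (every correlation over 0.1) in 1 of 44 comparisons of 2 groups, sfGFP-B112 minus B112 at 0 h, where the replicate block changed no call. Over the 44 the correlations ran from -0.479 to 0.443.

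Alternatives were DESeq2 1.42.0, its size factors (RLE) in edgeR, fits limited to the groups compared, no low-count filter, the replicate block, the ratio of mean TPM, the exchanged libraries kept as labelled, and leaving out each culture in turn. A fit without the library of low depth was chosen after seeing the data. Sequences are not shown, since no SK1 genome was used here, and gene neighbours were named from RefSeq S288C R64.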

Additional observations from a re-analysis of the deposited data

How the results depend on the processing

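Across the 52 comparisons, 571 of 624 alternative values for GPI13 and 565 of 624 for YGR079W kept their direction and their side of the threshold, or, for values without a test, stayed within the spread. No alternative without a left-out culture reversed a called difference, except the ratio of mean TPM for sfGFP-IME1 minus IME1 at 6 h in the AD experiment, -0.25 for GPI13 and -0.095 for YGR079W. The ratio of mean TPM also moved the change in the meiotic control from 2 to 2.5 h to 0.33 for GPI13 and -1.08 for YGR079W, and tethering at 2 h to 1.33 for GPI13. With only the compared groups in the fit, meiotic depletion at 2 h lost its call for GPI13 (-0.56, adjusted p = 0.136) and sfGFP-IME1 minus IME1 at 2 h gained one for YGR079W (-0.49, adjusted p = 0.0342). Without the library of low depth, T99N with sfGFP-IME1 at 2 h was called for GPI13 (-0.33, adjusted p = 0.0314). The cause of these changes was not tested.

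The other reversals were of differences that were not called. Tethering at 0 h for GPI13 was 0.017 with RLE size factors and with DESeq2, and 0.0019 with only the compared groups. For YGR079W, sfGFP-IME1 minus IME1 at 4 h was 0.075 with RLE size factors and with DESeq2 and 0.068 with only the compared groups. For GPI13, sfGFP-B112 minus B112 at 2 h was 0.016 with only the compared groups. With the exchanged libraries kept as labelled, T99N with IME1 was -0.29 at 0 h for GPI13 and -1.11 at 2 h for YGR079W. The replicate block put tethering at 0 h for GPI13 at 0.0055, and it took the call from sfGFP-IME1 minus IME1 at 6 h for YGR079W (0.65, adjusted p = 0.0527). It changed no other call, and in 43 of 44 comparisons the replicate numbers did not pair the libraries.

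Leaving out 1 culture at a time gave these ranges where a direction or a call that answers a main comparison changed. For GPI13 they were -0.25 to -0.022 for ume6Δ minus WT, -0.091 to 0.0095, -0.70 to -0.47, -0.54 to -0.42 and -0.098 to 0.011 for meiotic depletion at 0.5, 2, 2.5 and 3 h, -0.10 to 0.17 and -0.030 to 0.29 for the control change from 2 to 2.5 and 4.5 h, -0.041 to 0.23 and -0.28 to 0.041 for the interaction at 2.5 and 4.5 h, -0.38 to -0.27 for T99N with sfGFP-IME1 at 2 h, -0.20 to 0.19 for tethering at 0 h, -0.13 to 0.062 for sfGFP-B112 minus B112 at 2 h and -0.023 to 0.19 for sfGFP-B112 minus sfGFP-IME1 at 6 h. For YGR079W they were 0.58 to 0.89 and -0.0055 to 0.53 for meiotic depletion at 2.5 and 3 h, -0.11 to 0.11 for the interaction at 3 h, -0.57 to 0.83 for T99N with sfGFP-IME1 at 0 h, -0.0078 to 0.997 for T99N with IME1 at 2 h, -0.29 to 0.66 for tethering at 2 h, -0.67 to -0.32 and -0.25 to 0.32 for sfGFP-IME1 minus IME1 at 2 and 4 h, -1.09 to -0.45 for sfGFP-B112 minus B112 at 2 h, and -0.51 to 0.11 and -0.066 to 0.23 for sfGFP-B112 minus sfGFP-IME1 at 2 and 6 h.

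The SE of a log2 difference was 0.09 to 0.19 for GPI13 and 0.11 to 0.51 for YGR079W outside the interaction terms. The 0.51 was of T99N minus wild-type Ume6 with IME1 at 2 h, where the wild-type group held 2 libraries, and the next was 0.47. The median biological variation between replicates was 8.75% in the mitotic, 10.2% in the meiotic, 12.4% in the rescue and 17.8% in the AD experiment.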
